A study of Mus musculus with 4 samples.

Results

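The open chromatin of 4 long mouse genes, Slc39a11, Zbtb7c, Mical3 and Tbc1d1, was followed through 4 cell populations. They were chosen by a measured value, the number of sites open in a reprogramming intermediate and closed in fibroblasts. The peaks of each list that lay at most 10 bp apart were joined, joined peaks of the 4 lists sharing at least 1 bp were merged into regions, and every region over a gene body or within 50 kb of it was taken. These windows held 278 of the 173044 regions on the autosomes and the X chromosome, at 4 of 21631 protein-coding genes. A region is called open in a library when that library's list has a peak in it and closed otherwise. The choice thus used the intermediate and fibroblast lists, and the counts of gained and lost regions below are descriptions of that choice.

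The study used ATAC-seq, in which a transposase cuts and tags accessible DNA, with 1 library per population. Mouse embryonic fibroblasts (MEF) and induced pluripotent stem cells (iPSC) carried the strain and transgene label A12 (Mbd3 flox/-). The intermediate came from B6/129 fibroblasts with a Rosa26-TdTomato reporter from a B6 female and Col1a-OSKM from a 129 male, the transgene for the reprogramming factors Oct4, Sox2, Klf4 and Myc. Doxycycline, 4-hydroxytamoxifen and a JAK1 inhibitor were given up to day 9, and tdTomato-positive cells were sorted without feeders. Its title speaks of day 9 of trans-differentiation toward neural stem cells, while the source field gives an earlier day and the growth protocol calls the cells ES-like. The sort marks cells in which a Nanog-driven CreER had been active, so the intermediate stands for the sorted cells alone. Embryonic stem cells (ESC) were of the v6.5 line. Strain labels differ between the intermediate and each other library, so strain, transgene and cell state cannot be told apart.

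Slc39a11 encodes ZIP11, a membrane carrier of the ZIP family, whose members move zinc toward the cytosol. Zbtb7c encodes a BTB zinc finger protein that acts as a transcriptional repressor. Mical3 encodes a flavoprotein monooxygenase that acts on actin and takes part in the docking of Rab8 vesicles. Tbc1d1 encodes a Rab GTPase-activating protein, a substrate of AKT and AMPK that regulates the traffic of glucose transporter vesicles. Accessible sites inside a gene and far from its start are often enhancers of that gene or of a neighbour, and introduced reprogramming factors are known to bind many such sites early. A peak list says neither which gene a site serves nor whether the gene is expressed.

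The listed start sites of these genes were mostly accessible in several populations. Their sequences are shown to set them apart from the merged regions gained in the intermediate, none of which overlaps them. A Mical3 start window itself had an intermediate peak and no MEF peak, but its merged region was open in MEF and so was not gained. RefSeq start windows on GRCm38.p6, which reach from 250 bases before to 50 after a start, were given for 3 of the 4 genes, with 6 windows in all. They are printed 5′ to 3′ on the gene's strand with CpG dinucleotides in capitals. The Slc39a11 window on the minus strand at chr11:113650043-113650342 had a peak in every list. A Tbc1d1 window on the plus strand at chr5:64230107-64230406 had the tallest peaks of the 6. Mical3 has a window on the minus strand at chr6:121130973-121131272 with peaks in the intermediate, iPSC and ESC, and another at chr6:121081578-121081877 with none in any list.
Slc39a11: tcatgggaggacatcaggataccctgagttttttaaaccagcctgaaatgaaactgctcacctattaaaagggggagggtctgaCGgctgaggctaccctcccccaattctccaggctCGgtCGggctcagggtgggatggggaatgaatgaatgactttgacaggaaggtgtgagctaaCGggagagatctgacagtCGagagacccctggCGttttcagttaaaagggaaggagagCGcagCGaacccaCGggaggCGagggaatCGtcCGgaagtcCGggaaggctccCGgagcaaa
Tbc1d1: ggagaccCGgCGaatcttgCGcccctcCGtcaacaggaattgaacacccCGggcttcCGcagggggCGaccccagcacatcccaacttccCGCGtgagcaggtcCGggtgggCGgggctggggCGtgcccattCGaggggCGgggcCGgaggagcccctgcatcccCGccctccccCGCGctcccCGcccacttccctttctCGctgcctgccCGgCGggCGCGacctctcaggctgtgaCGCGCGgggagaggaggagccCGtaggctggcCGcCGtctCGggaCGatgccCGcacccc
Mical3 with peaks: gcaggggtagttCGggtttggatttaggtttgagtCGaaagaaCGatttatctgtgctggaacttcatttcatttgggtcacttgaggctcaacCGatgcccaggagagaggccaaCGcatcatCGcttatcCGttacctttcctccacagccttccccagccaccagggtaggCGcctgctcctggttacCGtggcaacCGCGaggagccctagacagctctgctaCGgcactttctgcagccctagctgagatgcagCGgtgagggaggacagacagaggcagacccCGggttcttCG
Mical3 without peaks: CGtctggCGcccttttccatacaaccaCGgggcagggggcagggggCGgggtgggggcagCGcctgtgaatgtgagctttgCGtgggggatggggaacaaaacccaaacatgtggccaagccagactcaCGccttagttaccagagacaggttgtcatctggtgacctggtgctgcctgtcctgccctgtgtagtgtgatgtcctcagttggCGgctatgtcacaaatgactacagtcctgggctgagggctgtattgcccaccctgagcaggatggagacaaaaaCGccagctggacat

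The Slc39a11 window held 14 CpG and its peaks were 43 (MEF), 33 (intermediate), 36 (iPSC) and 32 (ESC) high. Height is the authors' whole-number signal per peak and is not scaled between libraries, so it ranks peaks within a list only. A further Slc39a11 window at chr11:113565766-113566065, inside the gene, held 13 CpG and peaks of 110, 81, 56 and 97 in the same order. Tbc1d1's window above held 33 CpG, more than 91.4% of all 32619 windows had, and peaks of 164, 168, 206 and 185. Its other window, at chr5:64160010-64160309, held 26 CpG and peaks of 45, 36, 51 and 39. The Mical3 window with peaks held 15 CpG and its peaks were 130 (intermediate), 38 (iPSC) and 72 (ESC) high, while the one without peaks held 9. Over all windows the median was 23 CpG where every list had a peak and 3 where no list had one, so the Slc39a11 and Mical3 windows lay between those medians. MEF had a peak beside the open Mical3 window, in the same merged region, that did not reach into it.

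Short motifs were searched on both strands of these windows as a description. The GC box GGGCGG, a site of Sp and Klf factors, occurred in 35.9% of all windows, and here 4 times in the CpG-rich Tbc1d1 window, 2 times in the inner Slc39a11 window and 1 time in the Mical3 window without peaks. The CACC box CCACCC occurred in 31.6% of all windows and here in 3 of the 6. The E box CACGTG, a site of Myc and related factors, occurred in 7.2% of all windows and here in the inner Slc39a11 window alone. The octamer ATGCAAAT, a site of Oct factors, occurred in 1.75% of all windows and in 0 of the 6. A GC box holds a CpG by its letters, and GC box and CACC box matches can overlap at their ends.

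The outermost annotated ends of Mical3 and Tbc1d1 differed from these start windows. The zinc transporter gene Slc39a11 spans 113244851 to 113650200 of chromosome 11 and had at its end the peaks of its outer start window. Mical3 spans positions 120931546 to 121173757 of chromosome 6, and within 1 kb of its ends MEF had a peak of height 34 and the other lists had none. Tbc1d1 spans 64156305 to 64351486 of chromosome 5, and within 1 kb of its ends MEF had a peak of height 55 and the other lists had none. Zbtb7c spans 75820178 to 76148564 of chromosome 18, and an end had peaks of 67 (MEF), 74 (intermediate), 75 (iPSC) and 59 (ESC). The gene table used here gives gene spans without exons, so regions were not assigned to exons, introns or UTRs.

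Slc39a11 had 32 (MEF), 64 (intermediate), 25 (iPSC) and 21 (ESC) open regions. The intermediate thus held more regions at this zinc transporter gene than the other lists did. Zbtb7c had 25, 48, 19 and 14 in that order, again with the most in the intermediate. Mical3 had 28, 46, 15 and 15, so iPSC and ESC were equal there. Tbc1d1 had 24, 29, 26 and 14, so its MEF, intermediate and iPSC counts were close. A single library stands for each population, so these differences could not be set against replicate spread and were not tested.

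Windows differ in length, so regions were also counted per 100 kb. In the intermediate, Mical3 had 13.4 regions per 100 kb, Slc39a11 12.7, Zbtb7c 11.2 and Tbc1d1 9.82, where the median protein-coding gene had 4.19. In ESC the order was Tbc1d1 with 4.74, Mical3 with 4.38, Slc39a11 with 4.16 and Zbtb7c with 3.27, close to the median gene at 4.08. iPSC densities of Slc39a11, Zbtb7c and Mical3 were 4.95, 4.44 and 4.38 against a median of 4.21, and Tbc1d1 stood apart at 8.81. MEF densities ran from 5.84 at Zbtb7c to 8.18 at Mical3 against a median of 4.67. The ESC and iPSC densities were not used in choosing the genes, and by them Slc39a11, Zbtb7c and Mical3 lay near the median gene in pluripotent cells.

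**Figure D1:**
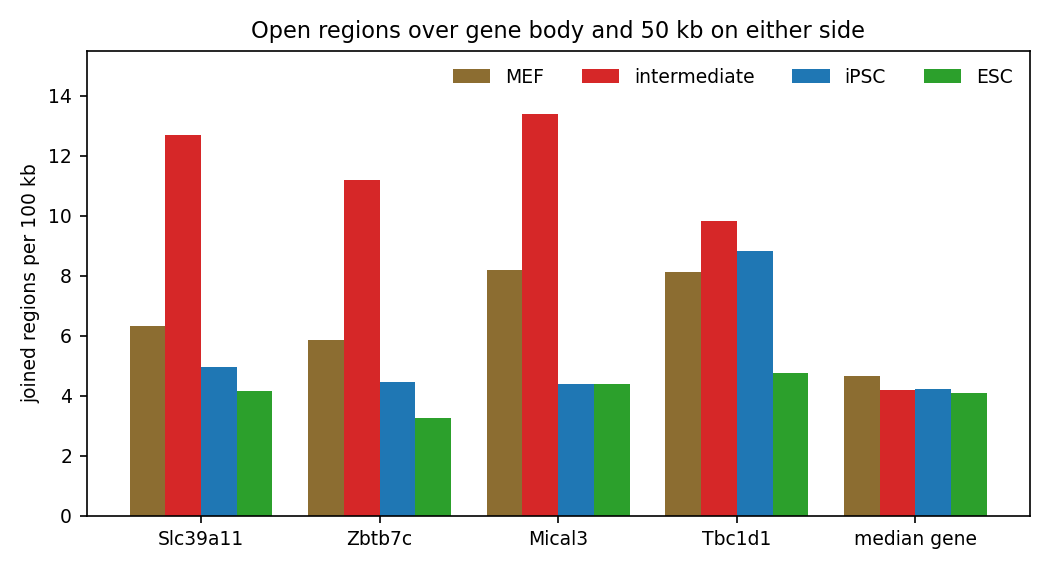
Joined regions per 100 kb of gene body plus 50 kb on either side (vertical axis) in each of the 4 libraries, with the median over 21631 protein-coding genes at the right; each bar is 1 library and has no error. The intermediate bar reaches 13.4 at Mical3, and the iPSC bar of Tbc1d1, at 8.81, is close to its MEF bar at 8.13.

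Gained regions are those the intermediate had open and MEF had closed; their counts fixed the choice of the genes and are given without a test. Over all 173044 regions, 24.6% were gained. Slc39a11 had 54 gained of 94 regions, Zbtb7c 36 of 67, Mical3 30 of 61 and Tbc1d1 20 of 56. Together these were 140 of 278, or 50.4% (Wilson 95% interval 44.5 to 56.2, which covers counting error over regions only). Lost regions, open in MEF and closed in the intermediate, made up 30.1% of all regions and 62 of the 278, or 22.3% (17.8 to 27.6). By gene 22 were lost at Slc39a11, 13 at Zbtb7c, 12 at Mical3 and 15 at Tbc1d1.

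Not every gene of the group stood at the head of the gained counts, with or without joining of neighbouring peaks. In joined regions Slc39a11 ranked 1 of 21631 genes and Zbtb7c ranked 6. Mical3 ranked 11 and Tbc1d1 ranked 78. By regions open in the intermediate alone they ranked 1, 5, 6 and 23, with 43, 26, 25 and 17 such regions. Without joining, gained peaks numbered 108 at Slc39a11, 66 at Zbtb7c, 58 at Mical3 and 46 at Tbc1d1, with ranks of 1, 2, 3 and 21. The label of most intermediate sites therefore does not hold for Tbc1d1 in joined regions. Without joining it was not at the head either, with rank 21 by gained peaks and 10 by peaks open in the intermediate alone. Its intermediate peaks had been divided into 2.13 sub-peaks per joined peak, against 1.56 for its MEF peaks. Over the whole lists the values were 1.86 in the intermediate and 1.96 in MEF. Intermediate peaks had 2.15 at Slc39a11, 1.98 at Zbtb7c and 2.04 at Mical3, so the intermediate value was not particular to Tbc1d1. The part of this division in the ranks was not tested.

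The 6 other genes with the most gained regions were longer. Gpc6 had 43 gained regions, Auts2 and Foxp1 41 each, Arhgap26 37, Nav2 36 and Macrod2 32, and their gene bodies ran from 597405 bp at Foxp1 to 1997664 bp at Macrod2. Slc39a11 is 405350 bp long, Zbtb7c 328387, Mical3 242212 and Tbc1d1 195182. Per 100 kb of window the members had 10.7, 8.4, 8.77 and 6.78 gained regions in that order, against 1.53 to 5.88 at those longer genes and a median of 1.91 over all genes. By this density Slc39a11 ranked 60, Mical3 222, Zbtb7c 269 and Tbc1d1 769, where the highest value of any gene was 18.5.

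**Figure D2:**
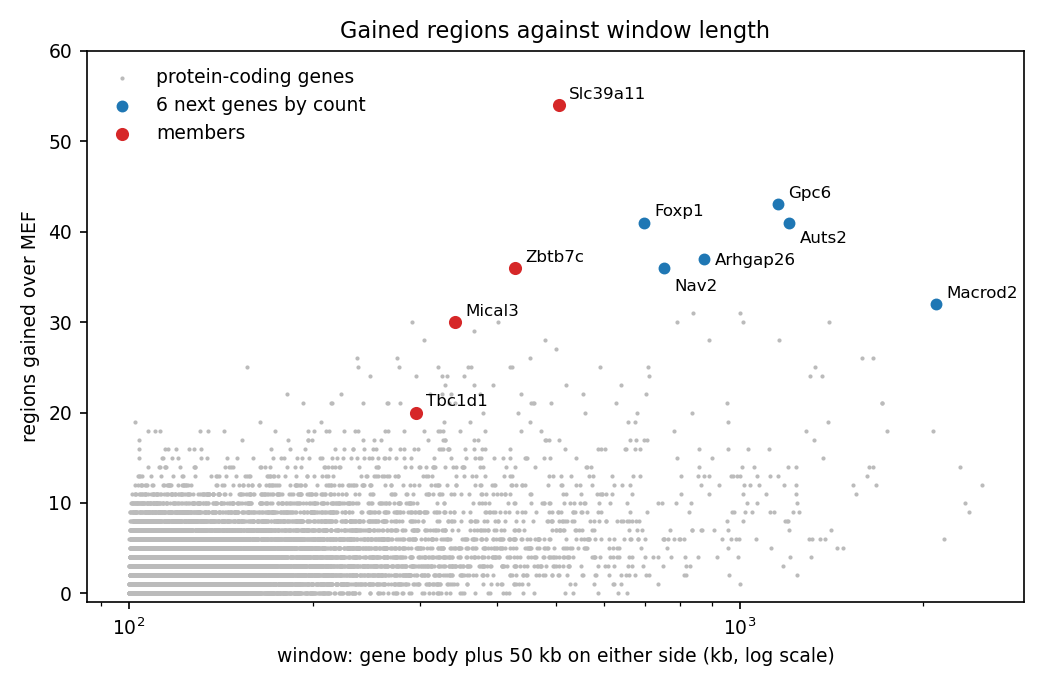
Regions gained over MEF (vertical axis) against window length in kb (horizontal axis, log scale) for 21631 protein-coding genes in grey, the 4 members in red and the 6 genes with the next most gained regions in blue. Slc39a11 has the highest count at 54, and the blue genes have longer windows than any member.

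Most regions of the intermediate at these genes appeared in no other list. At Slc39a11 this was the case for 43 of 64 intermediate regions, 67.2% (55.0 to 77.4). Zbtb7c had 26 of 48, 54.2% (40.3 to 67.4), Mical3 25 of 46, 54.3% (40.2 to 67.8), and Tbc1d1 17 of 29, 58.6% (40.7 to 74.5). Over all regions open in the intermediate the share was 37.8%. Such regions are by definition gained ones, so this share is not independent of the choice. Of all regions, 14.7% were open in the intermediate alone, against 45.7% at Slc39a11, 38.8% at Zbtb7c, 41.0% at Mical3 and 30.4% at Tbc1d1.

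**Figure D3:**
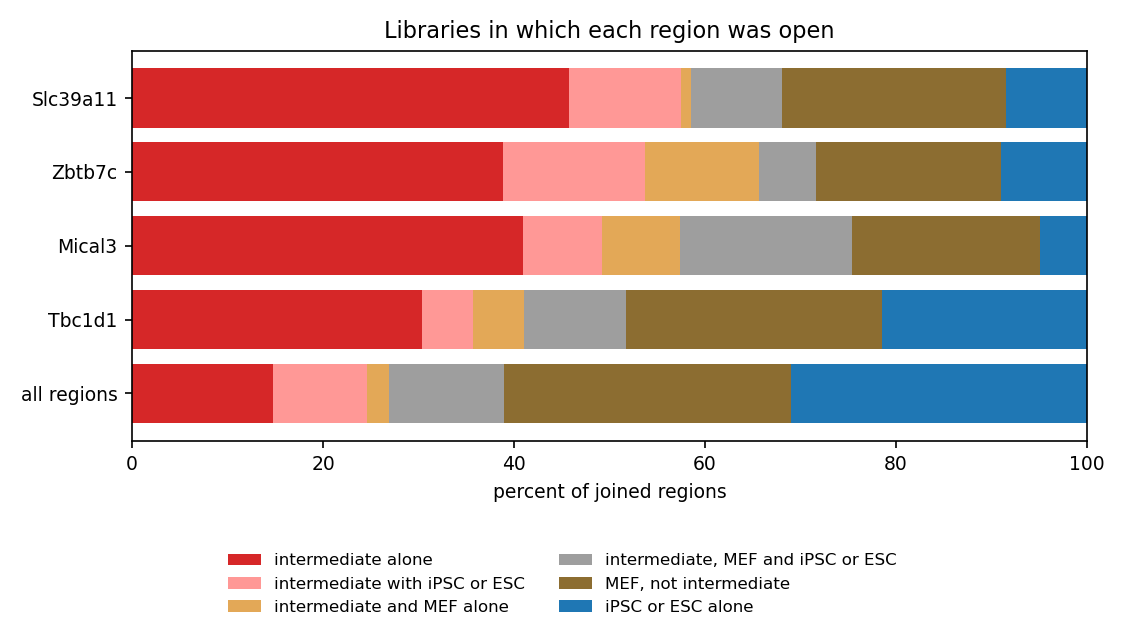
Percent of joined regions (horizontal axis) by the libraries in which they were open, for each gene and for all regions; the brown class may include iPSC or ESC, and the blue class is open in iPSC, ESC or both and in no other list. Regions open in the intermediate alone (red) make up 45.7% at Slc39a11 and 14.7% of all regions, and the blue class makes up 21.4% at Tbc1d1 and 30.9% of all regions.

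Regions of the intermediate at these genes were open in iPSC or ESC in a share of 31.6% (25.3 to 38.5), against 56.3% over the whole list. It was 20 of 64 at Slc39a11, 31.2% (21.2 to 43.4), and 14 of 48 at Zbtb7c, 29.2% (18.2 to 43.2). Mical3 had 16 of 46, 34.8% (22.7 to 49.2), and Tbc1d1 9 of 29 (interval 17.3% to 49.2%). No test of the difference was made, since the choice of gained regions bears on it. Over MEF, iPSC gained 17 regions at Slc39a11, 14 at Zbtb7c, 6 at Mical3 and 15 at Tbc1d1, together 52 of 278 regions, where 31.6% of all regions were gained. ESC gained 10, 9, 5 and 4, together 28, where 25.4% of all regions were. These comparisons share the MEF library with that of the intermediate. The 278 regions also include 111 open in the intermediate alone, which by definition cannot be gained in iPSC or ESC. The choice of the genes thus lowers both shares, so they are not read as a result about these genes. Regions open in every list numbered 7 at Slc39a11, 4 at Zbtb7c, 7 at Mical3 and 5 at Tbc1d1, or 8.27% (5.58 to 12.1) against 10.4% of all regions.

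Read from the pluripotent side, the intermediate covered much of what ESC had open at 3 of the genes. Mical3 had 14 of its 15 ESC regions open in the intermediate, 93.3% (70.2 to 98.8). Slc39a11 had 14 of 21, 66.7% (45.4 to 82.8), and Zbtb7c 10 of 14, 71.4% (45.4 to 88.3). Tbc1d1 had 6 of 14, 42.9% (21.4 to 67.4), near the 48.5% over all ESC regions. Of iPSC regions, the intermediate had 18 of 25 open at Slc39a11, 12 of 19 at Zbtb7c, 11 of 15 at Mical3 and 8 of 26 at Tbc1d1, where the share over all iPSC regions was 40.4%. Windows where the intermediate list is dense give more overlaps with any list, and the part of this in the shares was not tested.

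The part of iPSC regions that ESC shared could be read apart from the rule, which used neither list. At Slc39a11, 15 of 25 iPSC regions were open in ESC (interval 40.7% to 76.6%), and Zbtb7c had 11 of 19, 57.9% (36.3 to 76.9). Mical3 had 10 of 15, 66.7% (41.7 to 84.8), and Tbc1d1 12 of 26, 46.2% (28.8 to 64.5). The share over all iPSC regions was 62.5%, inside each of these intervals. Regions open in iPSC alone made up 13.6% of all regions and 14.3% of those at Tbc1d1 (8 of 56), close to that background. The shares were 4.26% at Slc39a11 (4 of 94), 4.48% at Zbtb7c (3 of 67) and 3.28% at Mical3 (2 of 61). A region open in iPSC alone must be closed in MEF and the intermediate, and the totals include the gained regions. The choice of the genes therefore bears on these iPSC-alone shares, and its part in them was not tested.

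Sites of the intermediate were spread along the gene bodies. Of the 111 regions open in the intermediate alone, 91 overlapped the gene bodies, 34 at Slc39a11, 22 at Zbtb7c, 23 at Mical3 and 12 at Tbc1d1. The bodies also make up most of each window, from 195.2 of 295.2 kb at Tbc1d1 to 405.4 of 505.4 kb at Slc39a11. Median gaps between neighbouring intermediate regions were 3.23 kb at Slc39a11, 4.7 kb at Zbtb7c, 3.85 kb at Mical3 and 4.43 kb at Tbc1d1. In MEF they were 7.26, 8.91, 8.79 and 7.99 kb in that order. The iPSC gaps were 12.2, 14.9, 11.8 and 8.04 kb, and those of ESC 12.9, 11.4, 13.8 and 12.7 kb. The longest uninterrupted series of regions open in the intermediate alone had 4 members at Slc39a11, 5 each at Zbtb7c and Mical3 and 3 at Tbc1d1. The Mical3 series held 211 bp pieces of heights 6 and 8, and the Slc39a11 series a 211 bp piece of height 9. A Tbc1d1 series held a 211 bp piece of height 14, and another was made of closely spaced peaks from 64397291 to 64399420. At Zbtb7c a series of 5 from 76104811 to 76126140 held no such piece. The lengths of the series at the other genes thus depend in part on how peaks were divided. Sites open in the intermediate alone were a median of 3.43 kb from the nearest region of another list, and 25 of the 111 lay within 1 kb of one. The same values over all regions open in the intermediate alone were not computed, so these distances are not read as particular to the 4 genes.

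**Figure D4:**
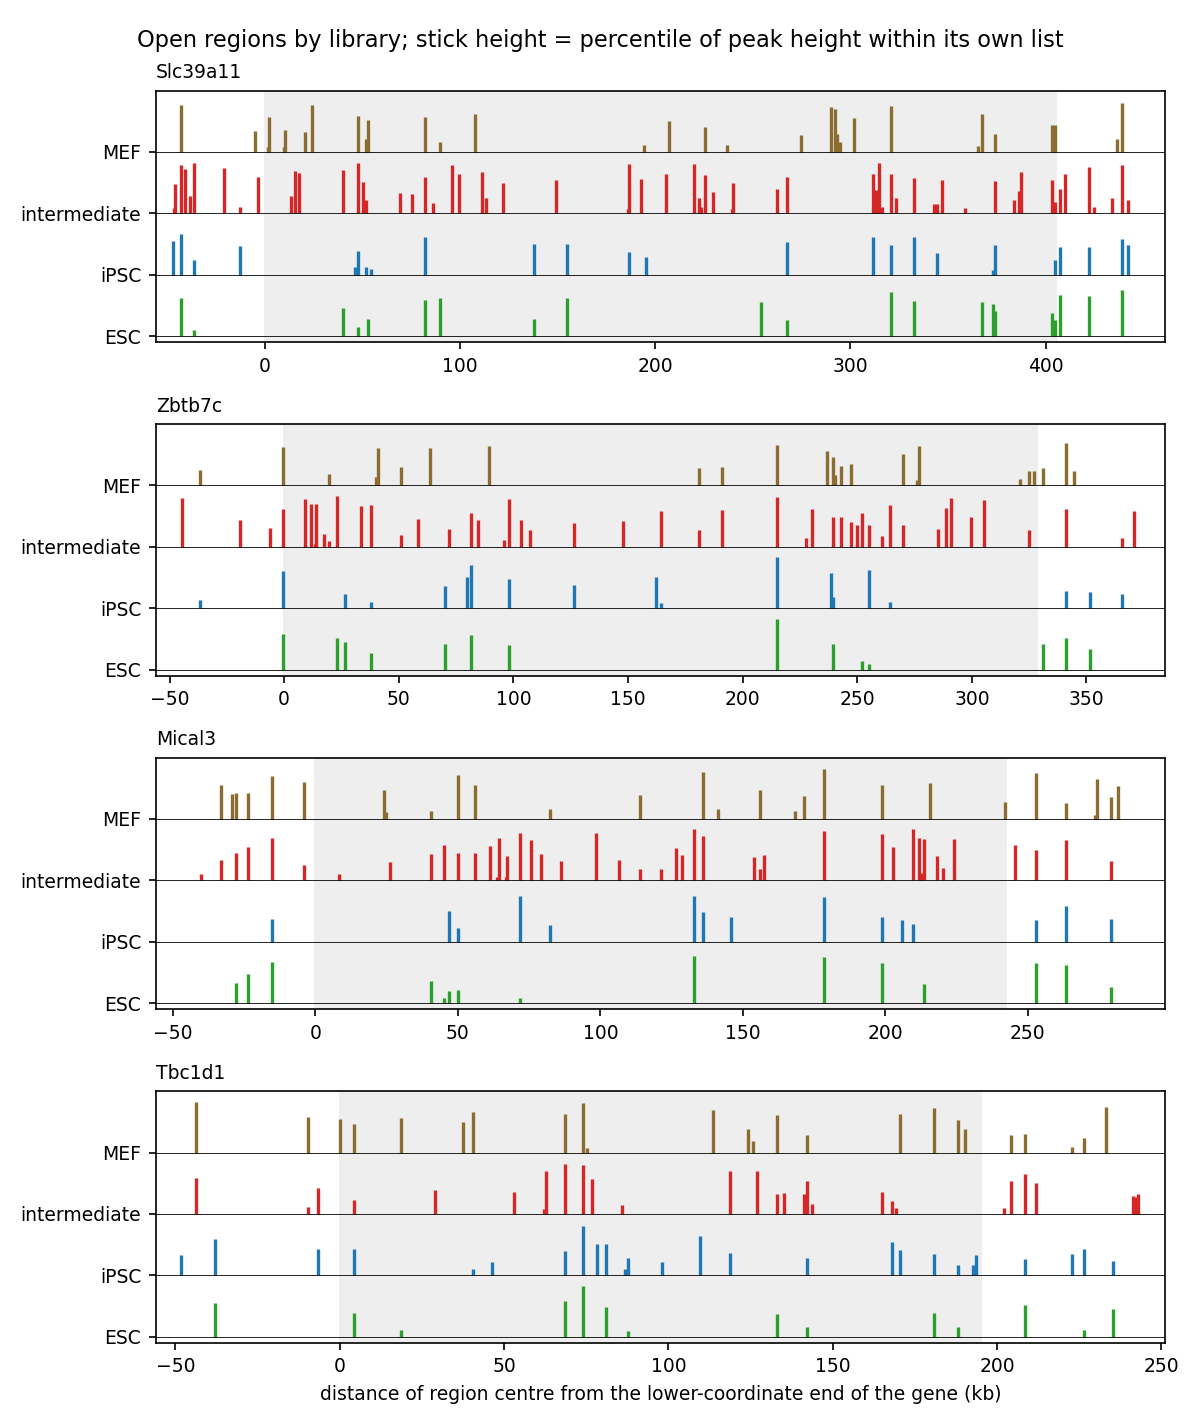
Position of each open region as the distance of its centre from the lower-coordinate end of the gene in kb (horizontal axis), with 1 row per library; the stick height is the percentile of the peak height within its own list and the grey band is the gene body. The intermediate row is the densest at Slc39a11, Zbtb7c and Mical3, with 64, 48 and 46 regions, and is close to the iPSC and MEF rows at Tbc1d1, with 29 against 26 and 24.

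Around the genes, density in the intermediate took a different course at each. Over the body, the intermediate had 14.9 regions per 100 kb at Mical3, 12.8 at Zbtb7c, 11.8 at Slc39a11 and 9.73 at Tbc1d1. In the flanks of 50 kb below and above, Slc39a11 had 18.0 and 14.0, more than in its body, Mical3 12.0 and 8.0, Zbtb7c 6.0 on either side and Tbc1d1 6.0 and 14.0. From 50 kb to 1 Mb below the gene, toward lower coordinates, it had 5.16 at Mical3, 5.79 at Zbtb7c, 5.05 at Slc39a11 and 3.47 at Tbc1d1. On the other side it had 2.63, 2.74, 2.95 and 4.84. Of the gained regions of Mical3, 28 of 30 lay in the body and 1 in each flank. Zbtb7c had 31 of its 36 in the body. Slc39a11 had 40 of 54 in the body, with 8 in the lower flank and 6 in the upper one.

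The bin of 50 kb with the most intermediate regions near Slc39a11 lay outside its window, centred 75.0 kb below the gene, and held 13 intermediate regions against 2 (MEF), 5 (iPSC) and 2 (ESC). The long non-coding RNA gene 2610035D17Rik, from 113043906 to 113201838 on chromosome 11, runs through it and had 37 regions over its body, 21 of them gained and 18 open in the intermediate alone. At Mical3 and Zbtb7c the highest bins lay in the gene body, with 11 and 9 intermediate regions. Tbc1d1 had at most 7 per bin, which it reached in bins of its body, in its upper flank and in the bin centred 75.0 kb below it.

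**Figure D5:**
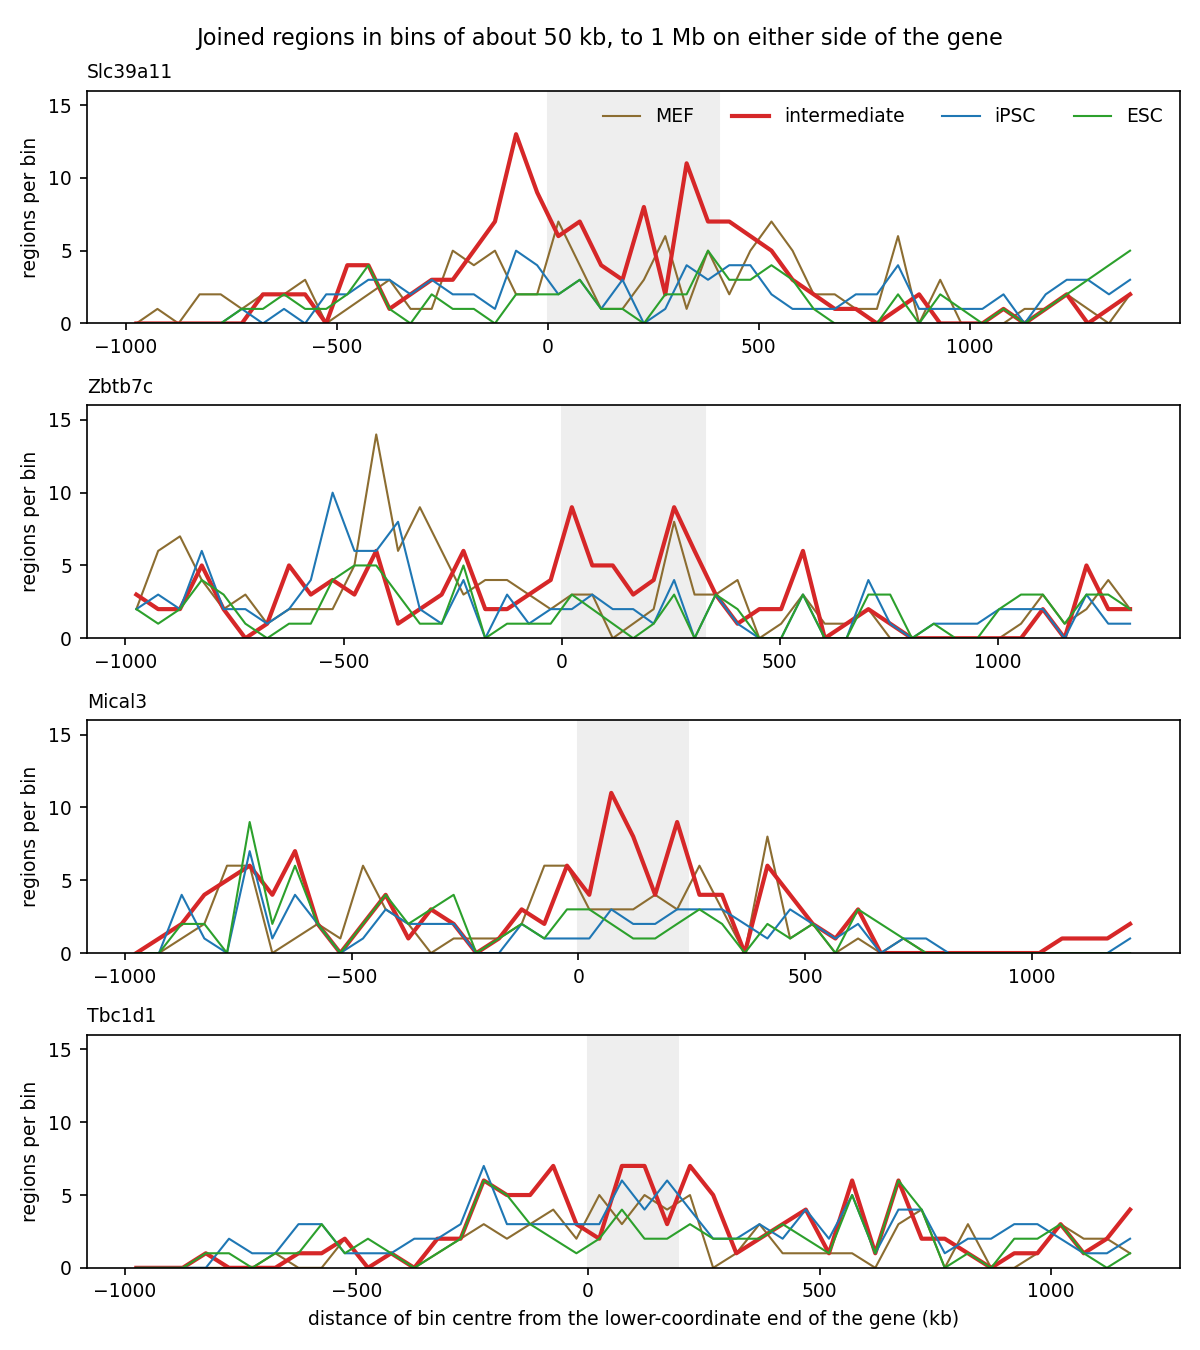
Joined regions per bin of about 50 kb (vertical axis) against distance from the lower-coordinate end of the gene in kb (horizontal axis), to 1 Mb on either side, with the gene body in grey and 1 line per library. The intermediate line (thick, red) peaks at 13 below Slc39a11 and at 11 within Mical3, and at Tbc1d1 it does not pass 7.

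Tall sites of the intermediate were inspected singly. At Slc39a11 the region from 113558981 to 113560020 reached a height of 223 in the intermediate, above 97.0% of that list, and no peak elsewhere. A region 35.5 kb below the gene, from 113207951 to 113209370 within the non-coding gene 4732490B19Rik, had 218 (intermediate), 36 (iPSC) and 22 (ESC). The region from 113291541 to 113293650 was open in every list, with 59 (MEF), 200 (intermediate), 46 (iPSC) and 27 (ESC). Those from 113431081 to 113432020 and from 113464061 to 113464800 had 185 and 169 in the intermediate, with 45 in iPSC at the former and no other peak. So 2 of the 5 tallest sites of this gene were open in the intermediate alone.

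Zbtb7c had its tallest intermediate site from 75842401 to 75843850, with a height of 225 there, 50 in ESC and none in MEF or iPSC. The region from 76034121 to 76036110 was open in every list, at 73 (MEF), 204 (intermediate), 288 (iPSC) and 180 (ESC). The other tall sites were open in the intermediate alone. They ran from 75775251 to 75776290 (height 174), from 76110231 to 76112120 (158) and from 75828971 to 75830000 (147). The site of height 174 lay 43.9 kb below the gene and overlapped no gene of the table.

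Mical3 had its tallest sites in sequence that other lists also opened. The region from 121140351 to 121141900 reached 281 in the intermediate, above 98.6% of that list, and 39 in iPSC. That from 121063871 to 121065110 had 258 (intermediate), 124 (iPSC) and 119 (ESC), with no MEF peak. Both overlapped non-coding genes annotated within Mical3, Gm30842 and Gm4651. The region from 121109071 to 121111040 was open in every list, with 166 in MEF and 186 in the intermediate. The tallest site open in the intermediate alone, from 121028771 to 121031050, had a height of 140 and a width of 2280 bp.

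At Tbc1d1 the tallest intermediate sites were shared with every library. One from 64224241 to 64225540 had 66 (MEF), 185 (intermediate), 48 (iPSC) and 59 (ESC). It lay beside the region of the inner start window, from 64229651 to 64231240, with 164, 168, 206 and 185. Sites open in the intermediate alone reached 101 from 64218621 to 64219490 and 100 from 64282261 to 64284120. These were above 81.9% and 81.6% of the intermediate list.

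Peak heights over all sites of the 4 genes were ordinary for the intermediate list. Regions open in the intermediate alone had a median height of 46.0 at the 4 genes and 42.0 over all such regions. By gene the medians were 45.0 at Slc39a11, 50.0 at Zbtb7c, 47.0 at Mical3 and 41.0 at Tbc1d1. Gained regions that iPSC or ESC also had were taller, with medians of 70.0 at the 4 genes and 54.0 over all regions. Lost regions had median MEF heights of 36.5 at Slc39a11, 33.0 at Zbtb7c, 36.5 at Mical3 and 53.0 at Tbc1d1, against 39.0 over all lost regions.

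Neighbouring protein-coding genes kept their end peaks between MEF and the intermediate. Of the 11 other protein-coding genes that overlap the windows, 10 had an end peak, at most 1 kb away, in each of the 4 libraries, and 0 gained or lost one between MEF and the intermediate. Fam104a and D11Wsu47e had the same end peaks. The share over all protein-coding genes was not computed, so this count is a description only. By the different measure of a peak in the start window, 37.0% of all 32619 windows had one in every list. The Slc39a11 window holds Sstr2, a somatostatin receptor, Cog1, a subunit of the Golgi tethering complex, Fam104a, D11Wsu47e and Cpsf4l. That of Mical3 holds Bid, a pro-apoptotic Bcl-2 family member, Bcl2l13, the peroxisome biogenesis factor Pex26 and the tubulin Tuba8, and that of Tbc1d1 holds the phosphoglucomutase Pgm2 and the predicted gene Gm46913, which had no end peak. Of 18 long non-coding RNA genes in the windows, those with an end peak numbered 7 (MEF), 11 (intermediate), 7 (iPSC) and 5 (ESC). The 8 with an end peak in the intermediate and none in MEF were 4732490B19Rik, Gm51927, Gm51926, Gm42094 and Gm51928 at Slc39a11 and Gm43915, Gm4651 and Gm30842 at Mical3. All of these but 4732490B19Rik lie within the body of Slc39a11 or Mical3, so their end peaks are sites of those genes too. The windows were chosen for sites open in the intermediate and closed in MEF, so these counts follow in part from the choice. The share over all long non-coding RNA genes was not computed. The 4 with the reverse were 1700034B16Rik and 2900057B20Rik at Zbtb7c, Gm38651 at Mical3 and Gm43837 at Tbc1d1.

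Relatives and partners of the 4 genes had between 0 and 19 gained regions. Over all protein-coding genes the median window had 3.0 gained and 3.0 lost regions, and 36.9% of genes had more gained than lost. Among the other 13 ZIP zinc importers the median was 3.0 gained, 3 had more gained than lost and 8 the reverse. Slc39a8, which takes up zinc, manganese and cadmium, had the most by count, with 9 gained and 0 lost. Per 100 kb of window Slc39a3 stood higher, with 7.35 gained regions against 5.24 at Slc39a8, and above the 6.78 of Tbc1d1. The 10 ZnT zinc exporters had a median of 3.0 gained, with 6 at Slc30a9. The zinc-responsive genes Mt1 and Mt2, which encode metallothioneins, had 3 gained each and share most of their window, and Mtf1, which encodes the metal-sensing transcription factor, had 7.

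BTB zinc finger relatives of Zbtb7c had a median of 7.5 gained regions. Its closest paralogs Zbtb7a and Zbtb7b, regulators of blood cell fates, had 7 and 8 gained with 7 and 2 lost, in windows of much shorter genes. Zbtb20 had 16 gained and 13 lost, and Zbtb16, which encodes PLZF, 3 gained and 12 lost. The other MICAL genes had a median of 4.0 gained. Mical2 had 5 gained and 21 lost, the reverse of Mical3 with 30 and 12. Micall2 had 0 gained and 6 lost.

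Among 6 other Rab GTPase-activating genes the median was 6.0 gained. Tbc1d4, the closest paralog of Tbc1d1, had 10 gained and 4 lost, and Rabgap1l had 19 and 13. Rab and upstream partners of Tbc1d1 had a median of 4.0 gained, with 8 gained and 8 lost at Rab10 and 4 gained and 0 lost at Slc2a4, which encodes the insulin-responsive glucose transporter. Over the 48 relatives and partners 17 genes had more gained than lost regions, 35.4%, near the share over all genes. Per 100 kb of window their median was 2.84 gained regions, against 1.91 over all protein-coding genes.

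Genes with the most similar division of regions among the 4 libraries were sought over 4729 genes with at least 20 regions, by the Euclidean distance between their shares open in each library. For Slc39a11 these were Hdac4 at a distance of 0.0395, Tnnt2 at 0.05 and Zbtb7c at 0.0534. Zbtb7c was nearest to Tnnt2 at 0.0442, Eefsec at 0.0498 and Slc39a11. Mical3 was nearest to Gm52140 at 0.0379, Tchp at 0.0513 and Plcg2 at 0.0568. Tbc1d1 was nearest to Hsd17b12 at 0.0323, Pigk at 0.0388 and Itpr1 at 0.0391, so neither it nor Mical3 shared a near gene with the others. Hdac4 had 24 of 36 regions open in the intermediate and 11 in MEF.

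The whole lists held 80134 (MEF), 71580 (intermediate), 84416 (iPSC) and 74473 (ESC) joined peaks, so the intermediate had the fewest. Read depth was not used here and is unknown for each list. Among 10 pluripotency genes, those with an end peak numbered 1 (MEF), 7 (intermediate), 10 (iPSC) and 8 (ESC). Esrrb and Pou5f1 had an end peak in iPSC alone, so both lacked it in ESC. For 10 fibroblast genes the numbers in the same order of libraries were 10, 4, 5 and 7, so end peaks at these were not limited to fibroblasts. Epithelial genes had one in 1 of 6 cases in MEF and in 6 in every other list, and neural genes in 1 of 5 in MEF and in 5 elsewhere. Endothelial markers had one in 0 of 3 cases in the intermediate and myeloid markers in 1 of 3, and the part of other cell types in the counts was not tested. The share of all protein-coding genes with an end peak in each list was not computed.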

How the data were processed

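Per the file headers, each deposited list gives a peak's start, end, summit position and height. Height is a whole-number signal whose lowest deposited value is 5. Bowtie2, MACS 1.4.2-1, Picard, CASAVA 1.8.2 and the build mm10 are named, without roles, per the submitters' processing notes; settings are not given there. Peaks were listed per library, and how they were called and divided sets every count of regions. Nothing in the files scales height to library size.

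Peaks on 19 autosomes and the X chromosome were joined at gaps of at most 10 bp and merged at 1 bp of overlap with Python 3.11.15 and pandas 2.3.3; the counting was checked on simulated peaks. Gene spans and start windows came from RefSeq on GRCm38.p6, the assembly that mm10 names. Wilson 95% intervals used scipy 1.17.1. The members, the gene lists and the naming rule (members, families, window genes, the 6 next genes by count, the 3 nearest in pattern, the 5 tallest sites) were chosen with earlier results of these data known. The cell type markers were too. There were no replicates and no tests.

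The alternatives were no joining, joining at 100 bp, heights of 10 or more, the taller 50% of each list, equal list lengths, windows of 0, 20 and 100 kb, and an overlap of 50% of the shorter peak.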

Additional observations from a re-analysis of the deposited data

How the results depend on the processing

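Without joining of neighbouring peaks, the 4 genes together had 278 gained regions in place of 140 and 102 lost in place of 62, and 75.0% of intermediate regions were in no other list in place of 59.4%, while the share over all intermediate regions was 52.0% in place of 37.8%. Under the other 8 alternatives gained regions ran from 113 to 169, lost ones from 50 to 77 and the share from 56.3% to 62.8%. Of 108 values per gene, 99 stayed within 1.5 times the reported count or within the interval of the reported share, and the 9 that moved did so without joining. Gained regions outnumbered lost ones at each gene under all 9 alternatives, at Tbc1d1 by as little as 15 to 14 with joining at 100 bp. The genes were chosen for gained regions and the alternatives count the same lists again, so this direction follows in part from the choice. Over the alternatives other than the overlap of 50%, for which genes were not ranked, Tbc1d1 ranked between 21 and 153 by gained regions, and Slc39a11 ranked 1 except over the gene body alone, where it ranked 2. No paired analysis was possible because each group had 1 library. Depth behind the lists is unknown, so a closed region may be a weak one.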

Other observations

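Some MEF regions were shared with the intermediate and with neither iPSC nor ESC. Of the 19 MEF regions of Zbtb7c closed in iPSC and ESC, 8 were open in the intermediate, 42.1% (Wilson 95% interval 23.1 to 63.7), against 1 of 20 at Slc39a11, 5.0% (0.888 to 23.6), 5 of 16 at Mical3, 31.2% (14.2 to 55.6), 3 of 11 at Tbc1d1, 27.3% (9.75 to 56.6), and 8.45% over all such regions. The intervals of the other 3 genes all overlap that of Zbtb7c, at Slc39a11 only between 23.1 and 23.6. With 1 library per population the order of the genes was not tested. The 8 all lay in the gene body, with heights of 30 to 50 in MEF and 26 to 72 in the intermediate. The region from 76010621 to 76011950 on chromosome 18 had the tallest intermediate peak of them, at 72, with 35 in MEF. At Tbc1d1 a region 43.3 kb below the gene, from 64112121 to 64112990 on chromosome 5, had 186 in MEF and 68 in the intermediate. This class was singled out after its values were seen and uses the same contrast as the choice of the genes.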
